A study of Mus musculus with 9 samples.

Results

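RING1B peaks lying more than 1000 and up to 10000 bp upstream of the gene they were assigned to were examined in mouse embryonic stem cells (mESCs) with and without EED. These upstream flank peaks were taken from the 2 deposited RING1B peak lists, 1 for Eed-/- and 1 for Eed+/+ cells. A peak on chromosomes 1 to 19 was kept when its deposited location named no gene body, no 3' untranslated region and no stretch just past a transcript end, and when its midpoint lay in that window before exon 1. The rule took 261 of 4157 peaks, which were 97 of 1810 in Eed-/- cells and 164 of 2347 in Eed+/+ cells. The distances were measured from the midpoint, so a wide peak could count as upstream and still reach over exon 1. At the near limit, an Eed-/- peak of Kcnq3 just over 1000 bp away (RING1B level 0.92) was in and one of Shank3 at 1000 bp (level 1.44) was out, and an Eed+/+ peak of Bcl11a at 1033 bp (level 4.49) was in and one of Prdm13 at 985 bp (level 5.01) was out. At the far limit, Neto2 at 9898 bp (level 1.45) was in and Tpp1 at 10441 bp (level 1.26) was out in Eed-/- cells, and EG664805 at 9952 bp (level 3.36) was in and Hoxd1 at 10264 bp (level 6.76) was out in Eed+/+ cells.

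Both cell types were labelled C57BL/6 embryonic stem cells, homozygous knockout for Eed in the first group and wild type in the second. RING1B was immunoprecipitated from each and the DNA was sequenced. The labels list 3 Eed-/- RING1B samples, 1 Eed+/+ RING1B sample and 3 input samples from Eed+/+ cells, and the methods of the study speak of several lanes for the Eed-/- sample and the input. Whether the samples labelled as replicates are those lanes was not established. Each genotype had 1 peak list, no replicate error could be given, and no test between genotypes was made. The Eed-/- library held 70343706 mapped tags and the Eed+/+ library 16814546, a 4.18-fold difference. The RING1B level used below is the tag count of a peak per kb of its width and per 1000000 mapped tags of its library. It is not corrected for background, and both lists hold only peaks of at least 101 tags. A peak of a given level therefore passes more easily in the deeper Eed-/- list. Intervals in brackets are exact (Clopper-Pearson) 95% binomial intervals and cover counting error only.

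RING1B is the catalytic E3 ligase of Polycomb repressive complex 1 (PRC1), which places ubiquitin on histone H2A. In the canonical form of PRC1 a CBX protein reads trimethylated histone H3 lysine 27, the mark made by PRC2, and that mark is lost without the PRC2 subunit EED. Other PRC1 forms carry RYBP or YAF2 in place of a CBX protein and can reach CpG islands, which are stretches of unmethylated CG-rich sequence at many promoters, without that mark. In embryonic stem cells Polycomb complexes are best known for covering the silent genes of developmental transcription factors, often as domains that run well beyond the promoter.

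The sequence under the summits is shown first, because the results below compare peaks by their CG content and CpG islands. Each line gives 300 bases around the summit of 1 peak on the plus strand of mm9, with every CG dinucleotide in capitals. The first 3 peaks were upstream flank peaks that the other genotype's list overlapped, taken at the Eed-/- summit.
Nkx2-5 (Eed-/- peak, chr17:26986814-26987113): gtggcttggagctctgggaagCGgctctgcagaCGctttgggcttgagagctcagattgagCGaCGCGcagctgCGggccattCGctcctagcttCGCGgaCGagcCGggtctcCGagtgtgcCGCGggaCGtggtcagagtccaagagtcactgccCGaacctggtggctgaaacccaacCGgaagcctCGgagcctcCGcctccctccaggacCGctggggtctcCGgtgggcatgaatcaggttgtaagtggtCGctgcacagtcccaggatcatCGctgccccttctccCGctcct
Gata2 (Eed-/- peak, chr6:88140388-88140687): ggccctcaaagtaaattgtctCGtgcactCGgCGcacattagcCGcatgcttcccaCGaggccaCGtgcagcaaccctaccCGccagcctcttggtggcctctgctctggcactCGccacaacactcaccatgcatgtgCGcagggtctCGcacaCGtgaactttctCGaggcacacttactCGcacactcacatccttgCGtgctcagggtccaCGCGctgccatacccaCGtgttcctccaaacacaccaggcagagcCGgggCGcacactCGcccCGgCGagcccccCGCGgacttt
Ebf3 (Eed-/- peak, chr7:144513990-144514289): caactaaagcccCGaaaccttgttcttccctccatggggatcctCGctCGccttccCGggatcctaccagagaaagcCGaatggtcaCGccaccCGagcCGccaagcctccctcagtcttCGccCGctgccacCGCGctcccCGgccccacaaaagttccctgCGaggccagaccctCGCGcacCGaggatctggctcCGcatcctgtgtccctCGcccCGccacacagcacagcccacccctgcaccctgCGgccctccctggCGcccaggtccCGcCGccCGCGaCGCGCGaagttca
The next pair was found in the Eed-/- list and not in the Eed+/+ list. The Susd4 peak met a CpG island and the OTTMUSG00000015829 peak did not.
Susd4 (Eed-/- peak, chr1:184693767-184694066): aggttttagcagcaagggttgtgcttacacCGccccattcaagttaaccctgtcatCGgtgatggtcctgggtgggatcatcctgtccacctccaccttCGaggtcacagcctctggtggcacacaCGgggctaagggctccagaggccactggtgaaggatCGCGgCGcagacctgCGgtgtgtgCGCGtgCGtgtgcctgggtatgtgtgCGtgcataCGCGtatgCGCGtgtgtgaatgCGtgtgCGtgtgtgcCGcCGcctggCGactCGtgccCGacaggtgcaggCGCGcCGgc
OTTMUSG00000015829 (Eed-/- peak, chr2:151496028-151496327): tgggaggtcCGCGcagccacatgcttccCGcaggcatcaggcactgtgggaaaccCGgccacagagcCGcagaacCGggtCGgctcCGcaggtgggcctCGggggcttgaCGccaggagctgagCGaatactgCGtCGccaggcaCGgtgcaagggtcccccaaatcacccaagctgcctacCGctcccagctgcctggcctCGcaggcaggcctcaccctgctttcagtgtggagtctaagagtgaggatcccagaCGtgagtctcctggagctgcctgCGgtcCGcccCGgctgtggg
The last pair was found in the Eed+/+ list and not in the Eed-/- list, and neither peak met a CpG island. In this they differ from most of their kind, since 62 of 92 Eed+/+ upstream flank peaks without an overlap met an island.
Ebf2 (Eed+/+ peak, chr14:67849158-67849457): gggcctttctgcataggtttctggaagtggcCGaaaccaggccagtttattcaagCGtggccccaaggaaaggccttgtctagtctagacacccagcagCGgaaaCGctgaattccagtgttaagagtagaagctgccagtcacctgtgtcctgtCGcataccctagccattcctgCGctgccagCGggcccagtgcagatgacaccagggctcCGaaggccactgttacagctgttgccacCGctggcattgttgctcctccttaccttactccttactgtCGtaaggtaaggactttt
Onecut1 (Eed+/+ peak, chr9:74701588-74701887): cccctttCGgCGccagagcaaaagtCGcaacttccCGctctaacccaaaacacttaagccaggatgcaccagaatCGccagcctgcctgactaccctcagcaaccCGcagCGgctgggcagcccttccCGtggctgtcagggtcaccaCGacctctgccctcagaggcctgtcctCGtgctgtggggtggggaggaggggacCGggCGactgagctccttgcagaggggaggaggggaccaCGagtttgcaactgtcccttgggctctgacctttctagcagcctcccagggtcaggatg
The windows held 24 CG at Nkx2-5, 24 at Gata2 and 29 at Ebf3, 26 at Susd4 and 20 at OTTMUSG00000015829, and 10 at Ebf2 and 13 at Onecut1. Over all upstream flank peaks the median was 23 CG per window in Eed-/- cells and 19.5 in Eed+/+ cells, beside 28 and 26 over all peaks of the same lists. Eed+/+ peaks with no overlapping Eed-/- peak had the fewest, a median of 17 against 24 for those with an overlap. In Eed-/- cells the peaks without an overlap had a median of 26 and those with an overlap 23.

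RING1B stayed detectable upstream of many developmental genes in Eed-/- cells, but at fewer places than in Eed+/+ cells. Of the 97 Eed-/- upstream flank peaks, 71 shared bases with an Eed+/+ peak (73.2%, 63.2 to 81.7), close to the 73.8% of all Eed-/- peaks. Of the 164 Eed+/+ peaks, 72 shared bases with an Eed-/- peak (43.9%, 36.2 to 51.9), below the 53.7% of all Eed+/+ peaks and the 59.7% of Eed+/+ peaks within 1 kb of exon 1. By gene name, 51 genes had upstream flank peaks in both lists, 54.8% of the 93 such genes in Eed-/- cells and 33.8% of the 151 in Eed+/+ cells. At an overlap of at least 50% of both peaks the shares were 38.1% in Eed-/- cells and 25% in Eed+/+ cells. A false discovery rate (FDR) of 1% or less was met by 19 of the 97 Eed-/- peaks (19.6%) and all 164 Eed+/+ peaks. Over all peaks of the lists it was met by 23.4% and 99.9%, so the upstream flank peaks were near the whole lists. With that limit in both lists the overlap shares were 94.7% in Eed-/- cells and 14.0% in Eed+/+ cells.

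Eed+/+ peaks near exon 1 were overlapped more often than distant ones, and they were also wider. The nearest, up to 2000 bp upstream, met an Eed-/- peak in 33 of 50 cases (66.0%, 51.2 to 78.8), against 11 of 22 between 2000 and 3000 bp, 15 of 49 between 3000 and 5000 bp and 13 of 43 beyond that (30.2%, 17.2 to 46.1). In the nearest bin 41 of the 50 peaks covered the start of exon 1 of their gene. Among Eed+/+ peaks that covered that start, 39 of 49 had an overlap (79.6%, 65.7 to 89.8), and among those that ended before it, 33 of 115 did (28.7%, 20.6 to 37.9). No such order by distance was seen among the Eed-/- peaks, which were overlapped in 17 of 26, 14 of 17, 20 of 23 and 20 of 31 cases over the same bins, and of which 9 covered the start of exon 1. The median width of the Eed+/+ peaks was 4743.5, 3475.5, 2798 and 2627 bp over the bins. It was 6199 bp for those covering exon 1 and 2648 bp for those ending before it. Of Eed+/+ peaks wider than 4000 bp, 44 of 57 were overlapped (77.2%), against 28 of the other 107 (26.2%). Whether overlap went with distance or with width was not tested.

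**Figure D1:**
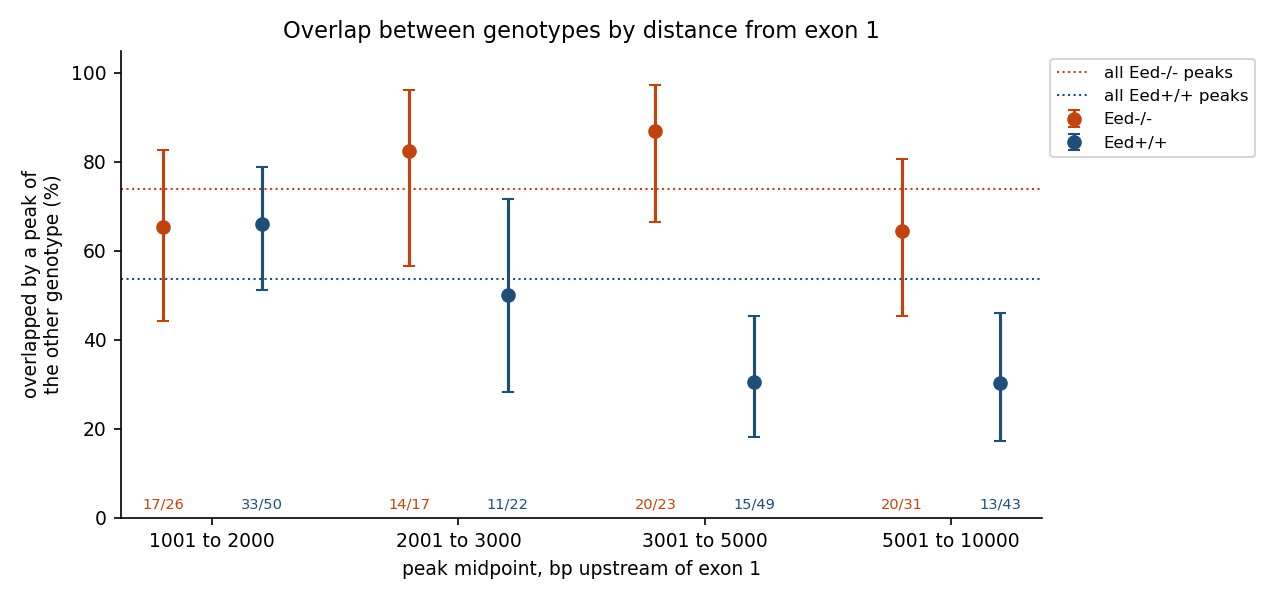
Share of upstream flank peaks (%) overlapped by a peak of the other genotype, by distance of the peak midpoint from exon 1 (bp), for Eed-/- (left of each pair) and Eed+/+ peaks. Points are shares with exact 95% binomial intervals, numbers give overlapped of all peaks, and dotted lines mark all peaks on chromosomes 1 to 19 (73.8% in Eed-/- and 53.7% in Eed+/+ cells); the Eed+/+ share was 66.0% in the nearest bin and 30.2% in the farthest.

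Upstream flank peaks had lower and narrower RING1B signal in Eed-/- cells. Their median level was 1.26 in Eed-/- cells (range 0.87 to 2.97) and 4.74 in Eed+/+ cells (2.01 to 13.7), beside 1.32 and 4.83 over all peaks. The floor of these ranges follows from the tag minimum and the depth, since 101 tags over 1 kb make a level of 1.44 in Eed-/- cells and 6.01 in Eed+/+ cells, and wider peaks can be listed at lower levels. Their median width was 2239 bp in Eed-/- cells and 3010.5 bp in Eed+/+ cells, beside 2163 and 2670 bp over all peaks. Peaks wider than 4000 bp numbered 10 of 97 in Eed-/- cells (10.3%, 7.86% of all peaks) and 57 of 164 in Eed+/+ cells (34.8%, 18.7% of all peaks). The midpoint rule admitted wide peaks over exon 1, 9 of 97 in Eed-/- cells and 49 of 164 in Eed+/+ cells. Their median widths were 3976 and 6199 bp. Peaks that ended before exon 1 had medians of 2115 bp in Eed-/- and 2648 bp in Eed+/+ cells, near those over all peaks. Within the Eed+/+ list, peaks with an overlap had a median width of 4537 bp and a median level of 6.90, against 2637.5 bp and 4.03 for those without.

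At the 71 overlapped Eed-/- peaks the level was lower than that of the Eed+/+ peak in every case. The same held at all 1315 overlapped Eed-/- peaks on chromosomes 1 to 19. The highest level of the 71 was 1.68 and the lowest of the Eed+/+ upstream flank peaks 2.01. With the tag minimum and unequal depth setting those floors, the count only describes the lists. The median Eed-/- over Eed+/+ ratio was 0.180 (quartiles 0.150 and 0.215), beside 0.220 over all overlapped Eed-/- peaks. Seen from the 72 overlapped Eed+/+ peaks the median was 0.199, beside 0.225 over all. The authors' fold enrichment gave a median ratio of 0.182, and tags per kb without scaling to depth gave 0.753. The Eed-/- peak was narrower at 62 of the 71, with a median width ratio of 0.510, beside 0.818 over all overlapped peaks. Of the 71, 48 lay wholly inside the Eed+/+ peak, and the 68 Eed+/+ peaks involved had a median width of 4635.5 bp, so that the level of a pair was averaged over stretches of unequal length. The lowest ratio among pairs of upstream flank peaks was at Pou3f2 (0.0920) and the highest at Kctd15 (0.634), which had the lowest level of all Eed+/+ upstream flank peaks.

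**Figure D2:**
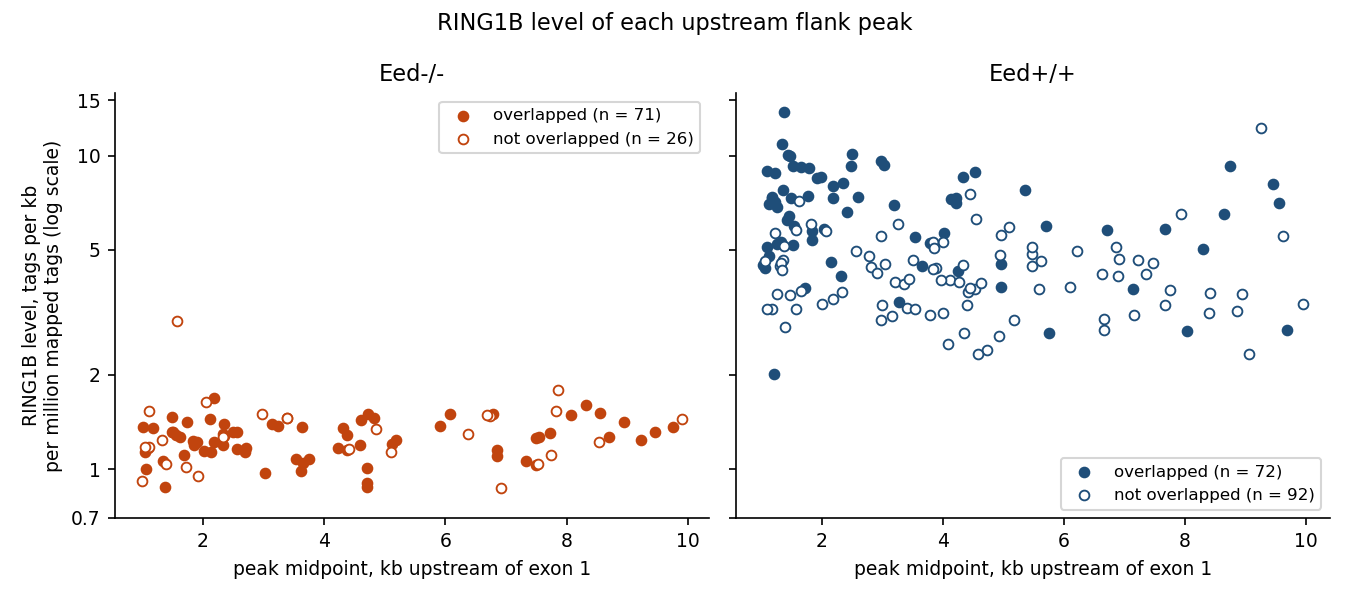
RING1B level (tags per kb per 1000000 mapped tags, log scale) of each upstream flank peak against the distance of its midpoint from exon 1 (kb), for Eed-/- peaks on the left and Eed+/+ peaks on the right. Filled points have an overlapping peak in the other list and open points have none; Eed-/- levels run from 0.87 to 2.97 and Eed+/+ levels from 2.01 to 13.7.

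At several genes a continuous Eed+/+ domain corresponded to separate smaller Eed-/- peaks. Gata2, a transcription factor of blood progenitors, was the only gene with 3 upstream flank peaks in Eed-/- cells. Their midpoints lay 8551, 4590 and 1899 bp upstream, with levels of 1.51, 1.19 and 1.22. In Eed+/+ cells Gata2 had a 10103-bp peak of level 8.47 that ran from 6977 bp upstream over exon 1, and a 2609-bp peak of level 5.04 at 8306 bp. The distal Eed-/- peak overlapped the smaller Eed+/+ peak at a ratio of 0.301 and the other upstream peaks lay in the large domain at ratios of 0.141 and 0.144. The farthest Gata2 peak was the highest of the 3 in Eed-/- cells, while in Eed+/+ cells the domain over exon 1 was higher than the distal peak. A further Eed-/- peak of level 1.33 over the Gata2 gene body lay in the same domain. Tbx1, a T-box factor of the pharyngeal arches, had 2 upstream Eed-/- peaks with levels of 1.50 and 1.19, both inside a 12366-bp Eed+/+ peak of level 10.9 centred near exon 1.

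Pou3f2, a POU factor of neural progenitors, was the only gene with 3 upstream flank peaks in Eed+/+ cells. In Eed-/- cells it had 1 upstream flank peak, 2160 bp wide with a level of 1.26, at 1628 bp. The Eed+/+ peaks at 1373, 6673 and 9626 bp had levels of 13.7, 3.01 and 5.55. The nearest was the highest upstream flank peak in either list and overlapped the Eed-/- peak, and the more distant pair overlapped no Eed-/- peak. At Sox1, a SOXB1 factor of the early neural plate, the distal peak and not the nearer one was overlapped. Its Eed-/- peak of level 1.32 lay 9463 bp upstream and overlapped an Eed+/+ peak of level 7.04 at 9557 bp, whereas the Eed+/+ peak of level 4.49 at 4341 bp had no overlap. Both Sox1 peaks with an overlap held the start of the predicted gene Gm5607.

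The widest upstream flank peaks were those of Ebf3, Pax2 and Nr2e1, all in Eed+/+ cells. Ebf3, a factor of the early B cell factor family, had a 1469-bp Eed-/- peak of level 1.60 at 8317 bp upstream, inside a 15398-bp Eed+/+ peak of level 9.97. Pax2, a paired-box factor of kidney and eye, had a 1398-bp Eed-/- peak of level 1.49 at 6794 bp, inside a 14899-bp Eed+/+ peak of level 8.53. Nr2e1, an orphan nuclear receptor of neural stem cells, had a 2010-bp Eed-/- peak of level 1.06 at 1343 bp inside a 12092-bp Eed+/+ peak of level 7.26. In all 3 genes the upstream Eed-/- peak covered a small stretch of the Eed+/+ domain. Counting peaks elsewhere in these genes, the domains overlapped 2 Eed-/- peaks at Ebf3, 3 at Pax2 and 2 at Nr2e1. Nkx2-5, a homeobox factor of the heart, differed in that its upstream peaks were of similar width and place, 1952 bp at 8940 bp in Eed-/- cells and 2355 bp at 8751 bp in Eed+/+ cells. The levels of the Nkx2-5 peaks were 1.41 in Eed-/- cells and 9.24 in Eed+/+ cells, a ratio of 0.153.

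**Figure D3:**
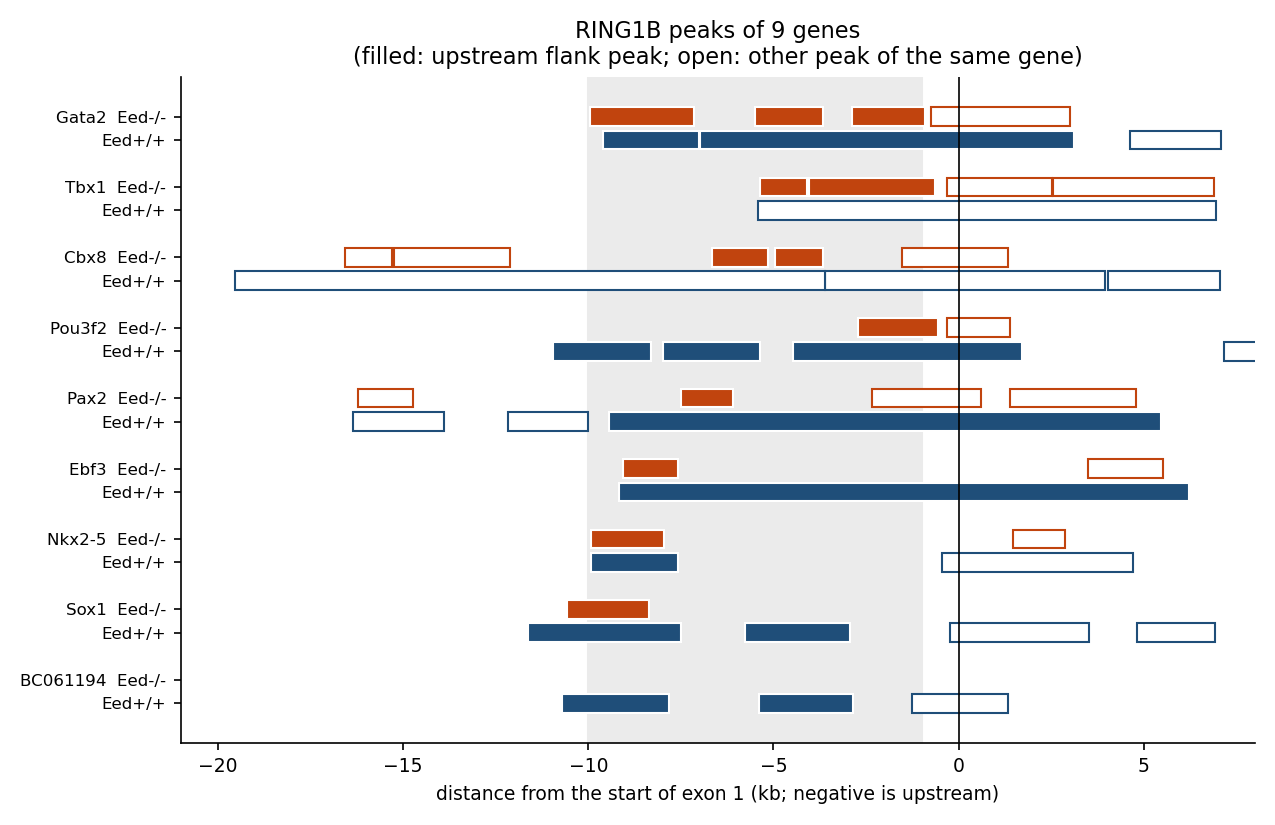
Position of the RING1B peaks assigned to 9 genes, as far as they lie in the plotted range, relative to the start of exon 1 (kb, negative is upstream, drawn to scale), Eed-/- peaks above Eed+/+ peaks for each gene. Filled bars are upstream flank peaks, open bars other peaks of the gene, and the grey band is the window for peak midpoints; the 3 Eed-/- upstream flank peaks of Gata2 lie over 2 Eed+/+ peaks, and BC061194 had no Eed-/- peak.

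Genes of developmental transcription factors held many of the upstream flank peaks in both lists. Regulation of transcription was among the deposited processes of the gene for 54 of 97 Eed-/- peaks (55.7%) and 106 of 164 Eed+/+ peaks (64.6%), beside 26.0% and 29.7% over all peaks. Multicellular organismal development was named for 27 Eed-/- peaks (27.8%) and 70 Eed+/+ peaks (42.7%), beside 17.6% and 20.7%. Among the 26 Eed-/- peaks without an overlap a process naming transcription was given for 6 peaks (23.1%, 8.97 to 43.6), and among the 71 with an overlap for 49 peaks (69.0%, 56.9 to 79.5), some of which share a gene. Over all Eed-/- peaks the share was 27.3%.

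Homeobox genes had the largest differences in number between the genotypes among the lists, and both homeobox lists also had more Eed+/+ than Eed-/- peaks over the whole lists, with 32 Eed-/- and 74 Eed+/+ peaks in the Hox clusters (1.80% and 3.21% of all peaks) and 135 and 217 outside them (7.58% and 9.41%). In the Hox clusters, with the neighbouring Evx1, there were 3 in Eed-/- cells (Hoxa6, Hoxa11 and Hoxd11) and 14 in Eed+/+ cells. All 3 Eed-/- peaks had an overlap, whereas 3 of the 14 Eed+/+ peaks did. Hoxa6 had a level of 1.36 in Eed-/- cells and 8.55 in Eed+/+ cells at peaks with the same exon 1-side border. Hoxa9, the highest of the Eed+/+ Hox peaks at 10.1, overlapped an Eed-/- peak of level 1.29 that was assigned to the same gene and lay 2978 bp upstream, but was left out of the upstream flank set by its deposited location. Hoxd10 had upstream flank peaks of levels 7.52 and 3.67 in Eed+/+ cells, neither overlapped by an Eed-/- peak, although the Eed-/- list held a Hoxd10 promoter peak of level 1.13. The HOX proteins set position along the body axis.

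Homeobox genes outside the Hox clusters had 11 upstream flank peaks in Eed-/- cells, all overlapped, and 34 in Eed+/+ cells, 9 of them overlapped. Prox1, a factor of lymphatic and lens development, had levels of 1.14 in Eed-/- cells and 9.61 in Eed+/+ cells, a ratio of 0.118. Nkx2-2, a factor of the ventral neural tube, had an Eed-/- peak of level 1.49 at 8068 bp inside a 10601-bp Eed+/+ domain of level 7.04. Otp, a factor of the hypothalamus, and Onecut1, a factor of liver and pancreas, had Eed+/+ peaks of levels 7.15 and 6.50 with no overlap. Eed-/- peaks came within 911 bp at Otp and 3099 bp at Onecut1.

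The other transcription factor families were smaller. Basic helix-loop-helix and EBF factors had 5 Eed-/- peaks, all overlapped, and 15 Eed+/+ peaks, 7 of them overlapped. They made up 5.15% of Eed-/- and 9.15% of Eed+/+ upstream flank peaks, beside 2.25% and 2.90% of all peaks. Tal1, a master regulator of blood, had the highest level of the overlapped Eed-/- upstream flank peaks, 1.68, at a place where the Eed+/+ level was 10.8. Olig2, a factor of motor neurons and oligodendrocytes, had 1.22 in Eed-/- cells and 10.0 in Eed+/+ cells. Forkhead genes had 1 Eed-/- peak, that of Foxd3 (level 0.97, against 4.43 in Eed+/+ cells), and 9 Eed+/+ peaks, 4 of them overlapped. Foxc1 and Foxb1 were the highest of these in Eed+/+ cells at 9.13 and 9.17, and their domains overlapped Eed-/- peaks near exon 1. Forkhead genes made up 1.03% of Eed-/- and 5.49% of Eed+/+ upstream flank peaks, beside 1.63% and 1.99% of all peaks.

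Gata genes had 3 Eed-/- peaks, all of Gata2, and 4 Eed+/+ peaks, 3 of them overlapped. They made up 3.09% of Eed-/- and 2.44% of Eed+/+ upstream flank peaks, beside 0.393% and 0.433% of all peaks. Gata4, a factor of heart and endoderm, had Eed+/+ upstream flank peaks of levels 6.99 and 3.82, of which the first covered exon 1 and overlapped an Eed-/- promoter peak of level 1.13. Sox genes had 2 peaks in each genotype, 1 of each overlapped, and the list of developmental zinc finger and AP-2 genes had 6 Eed-/- and 8 Eed+/+ peaks, 5 and 6 of them overlapped. Pax genes had 4 Eed-/- and 5 Eed+/+ peaks, of which 4 and 3 were overlapped. Pax5, a B cell factor, had levels of 1.38 in Eed-/- cells and 8.18 in Eed+/+ cells. Pax3, a factor of neural crest and muscle, had Eed+/+ peaks of 6.27 and 4.20 with no Eed-/- peak within 10 kb. T-box genes had 3 Eed-/- peaks, all overlapped, and 5 Eed+/+ peaks, of which only that of Tbx18 was overlapped (1.27 in Eed-/- cells and 6.51 in Eed+/+ cells). Tbx4 and Tbx5, factors of the limbs and heart, had Eed+/+ levels of 4.38 and 4.50 and no overlap. Nuclear receptor genes had 4 Eed-/- peaks, all overlapped, and 5 Eed+/+ peaks, 4 of them overlapped. Among them Nr4a3 had levels of 1.50 in Eed-/- cells and 7.37 in Eed+/+ cells, and Nr3c2, the mineralocorticoid receptor, 1.32 and 7.31. Each of these lists held a larger share of upstream flank peaks than of all peaks. In Eed-/- cells the shares were 2.06% and 0.786% for Sox, 6.19% and 2.64% for zinc finger and 4.12% and 0.898% for Pax genes. T-box genes had 3.09% and 0.786% and nuclear receptors 4.12% and 1.07%. In Eed+/+ cells Sox genes had 1.22% and 0.737% and zinc finger genes 4.88% and 3.21%. Pax, T-box and nuclear receptor genes each had 3.05%, beside 0.910%, 1.08% and 1.13%.

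Genes of signalling and of nerve cell function had few upstream flank peaks in number, with shares above or below those over all peaks. In Eed-/- cells the Wnt list held 3.09% of upstream flank peaks and 1.57% of all peaks, and Hedgehog and Notch genes 2.06% and 0.786%. Ion channel and receptor genes held 5.15% and 3.87%, axon guidance genes 3.09% and 2.64% and transporters 1.03% and 1.63%. In Eed+/+ cells the shares, in that order, were 1.83% and 1.99%, 1.22% and 0.607%, 3.66% and 4.51%, 1.22% and 3.12%, and 1.83% and 1.99%. The Wnt list had 3 peaks in each genotype, 2 of each overlapped. Lef1, a transcription factor of the pathway, had levels of 1.46 in Eed-/- cells and 6.97 in Eed+/+ cells, and the ligand Wnt11 had 1.40 and 9.32. Tcf7, another of its transcription factors, had an Eed-/- peak of level 1.04 alone, and the ligand Wnt3 an Eed+/+ peak of level 3.62 alone. Of the Notch ligands, Dll1 had an upstream flank peak in Eed-/- cells only (1.14) and Dll4 in Eed+/+ cells only (5.65, in an 8561-bp peak that covered exon 1). Ptch1, the Hedgehog receptor, had 1.03 in Eed-/- cells and 5.81 in Eed+/+ cells. Genes of ion channels and neurotransmitter receptors had 5 Eed-/- and 6 Eed+/+ peaks, 3 and 4 of them overlapped. The glutamate receptor genes Grin2a and Grm4 had levels of 1.29 and 1.24 in Eed-/- cells and 6.23 and 8.09 in Eed+/+ cells. The axon guidance and adhesion list had 3 Eed-/- and 2 Eed+/+ peaks, 2 of each overlapped, and transporter genes had 1 and 3, of which 1 and 2 were overlapped. The feedback inhibitor list had 1 peak, that of Dusp8 (level 2.72) in Eed+/+ cells, and genes with a Rik clone name had 3 in each list, 2 of each overlapped. No Bmp, Tgfb or Fgf pathway gene and no gene of the germline list had an upstream flank peak in either list. Both gene lists were small over all peaks too. The Bmp, Tgfb and Fgf list had 33 Eed-/- and 39 Eed+/+ peaks (1.85% and 1.69%), and the germline list 16 and 6 (0.898% and 0.260%). Genes were matched to the lists by symbol, and OTTMUSG00000015829, described below, was in none of them.

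Cbx8, which codes for a chromodomain subunit of canonical PRC1, appeared among the upstream flank peaks of Eed-/- cells only. It had Eed-/- peaks of levels 1.35 and 1.38 inside a 15950-bp Eed+/+ peak of level 6.58 whose midpoint lay 11571 bp upstream. Cbx8 was thus missing from the Eed+/+ set because the midpoint of this wide peak fell outside the window, while RING1B was present there in Eed+/+ cells.

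**Figure D4:**
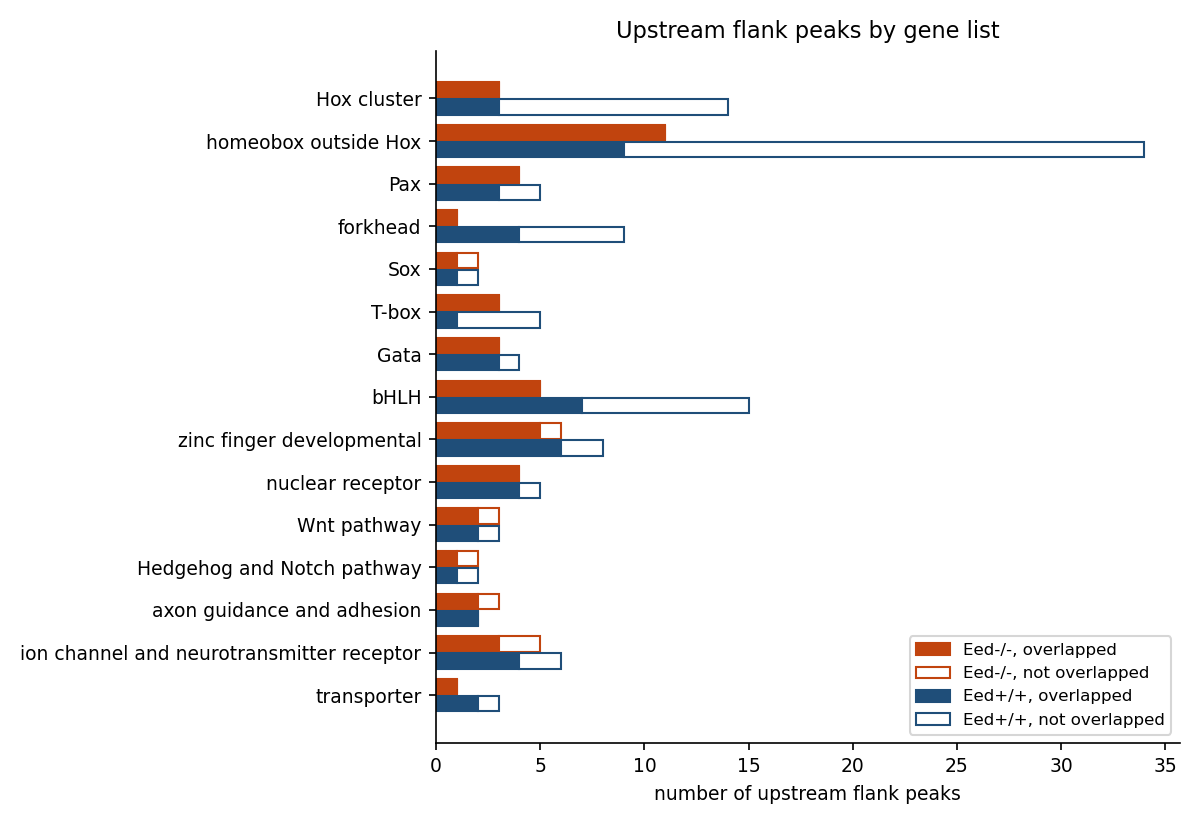
Number of upstream flank peaks of each gene list, Eed-/- bars above Eed+/+ bars; the filled part has an overlapping peak in the other list. The feedback inhibitor, Polycomb and Rik-named lists and lists with no peak are not drawn; homeobox genes outside Hox had 11 Eed-/- peaks, all overlapped, and 34 Eed+/+ peaks, 9 of them overlapped.

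CpG islands lay under most upstream flank peaks, in a smaller share of the Eed+/+ peaks. A CpG island was met by 90 of 97 Eed-/- peaks (92.8%, 85.7 to 97.0; 96.1% of all Eed-/- peaks) and by 133 of 164 Eed+/+ peaks (81.1%, 74.3 to 86.8; 94.1% of all Eed+/+ peaks). Among Eed+/+ peaks with an Eed-/- overlap 71 of 72 met an island (98.6%), and among those without 62 of 92 did (67.4%). Put the other way, 1 of the 31 Eed+/+ peaks off an island was overlapped (3.23%, 0.0816 to 16.7), against 71 of the 133 on an island (53.4%, 44.5 to 62.1). In Eed-/- cells the shares overlapped were alike, 5 of 7 peaks off an island and 66 of 90 on an island. The split by overlap, for islands as for CG counts, widths, levels, processes and motifs, was not calculated over all peaks. Such contrasts are therefore not shown to be particular to upstream flank peaks. Median GC content was 58.8% in Eed-/- and 54.9% in Eed+/+ peaks, beside 60.9% and 58.3% over all peaks. Off-island Eed+/+ peaks included those of Ebf2 (level 6.07), Onecut1, Tbx5 and Foxc2 (5.79), and 1 each of the peaks of Pax3, Hoxd10 and Sox1. They were narrower, with a median width of 2367 bp against 3487 bp for those on an island, and their median level was 4.49 against 5.08.

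**Figure D5:**
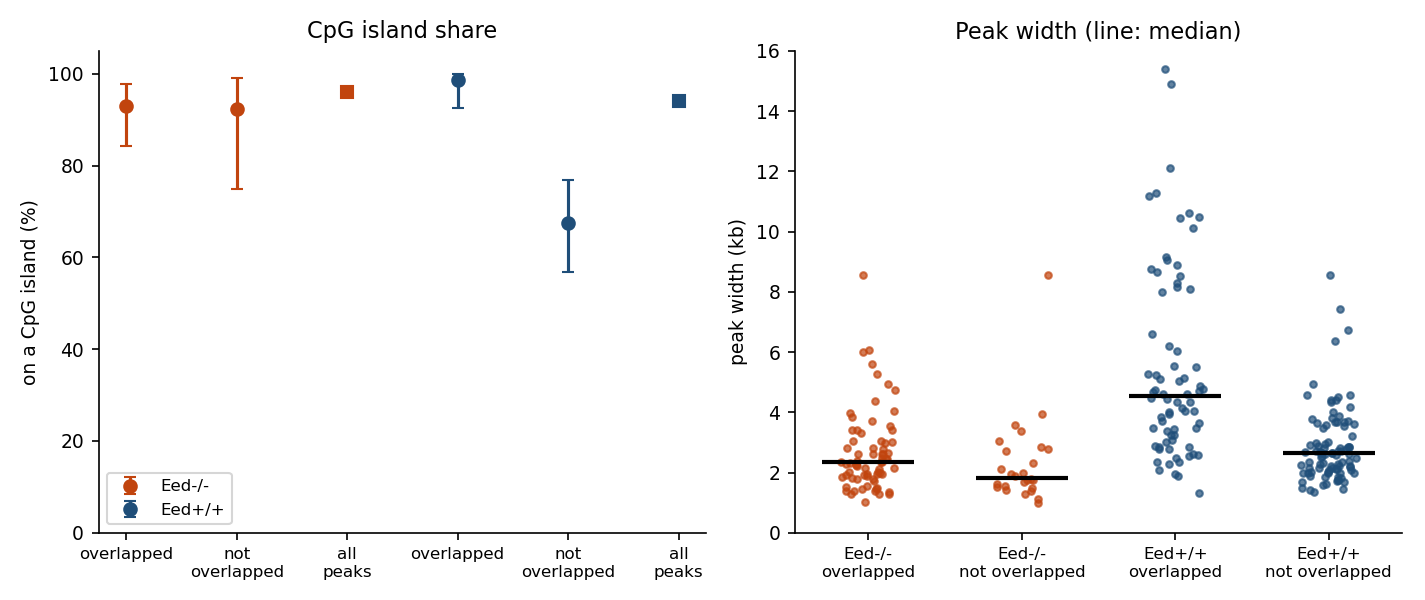
Left, share of peaks on a CpG island (%) for upstream flank peaks with and without an overlapping peak of the other genotype (circles) and for all peaks on chromosomes 1 to 19 (squares), with exact 95% binomial intervals that lie within the symbols for all peaks, Eed-/- before Eed+/+. Right, width (kb) of each upstream flank peak with and without an overlap, with a line at the median; Eed+/+ peaks without an overlap met an island in 67.4% of cases, against 98.6% of those with an overlap.

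The peaks without an overlap lay in different surroundings in the 2 genotypes. Of the 26 Eed-/- peaks without an overlap, 5 belonged to a gene with any Eed+/+ peak (19.2%) and 4 had an Eed+/+ peak within 5 kb, and the median distance to the nearest Eed+/+ peak was 152502 bp. Of the 92 Eed+/+ peaks without an overlap, 50 belonged to a gene with an Eed-/- peak elsewhere (54.3%), 30 to a gene with an Eed-/- promoter peak, and 40 had an Eed-/- peak within 5 kb, with a median distance of 6544 bp. The Eed+/+ peaks without an overlap thus lay closer, by the median, to a peak of the other genotype than the Eed-/- peaks without an overlap did. These values were not calculated for all peaks without an overlap, so the difference is not shown to be particular to upstream flank peaks.

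Among the Eed-/- peaks without an overlap the highest was that of Fbxo46, an F-box protein gene, with a level of 2.97 and a fold enrichment of 9.54 over 1432 bp, on the start of the predicted gene Gm4969. The peak of OTTMUSG00000015829 had the highest fold enrichment of all Eed-/- upstream flank peaks, 12.1, at a level of 1.64. Its nearest annotated start, at 1296 bp, was that of Rad21l, a meiotic cohesin subunit. The exon 1 start of OTTMUSG00000015829 itself lay 1297 bp from the peak, so Rad21l and the assigned gene appear to share this start. The peak of A730008H23Rik had 1074 tags over 8542 bp (level 1.79, fold enrichment 3.76) with no island and a GC content of 46.0%, the lowest of the Eed-/- set. It was the only one of the 7 Eed-/- upstream flank peaks with enough tags to pass 100 at the Eed+/+ depth (more than 418) that was not overlapped.

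Susd4, a regulator of complement, had a 1000-bp Eed-/- peak of level 1.54 and Ccnd1, cyclin D1, a peak of level 1.50 at 2982 bp upstream. The peak assigned to Glt25d1 (1.54), now named Colgalt1, lay on the start of Fam129c. Chosen after their values were seen, Rest (1.02), a repressor of neuronal genes, Crebbp (1.24), a histone acetyltransferase, and Sall1 (0.95), a zinc finger factor of kidney development, also had Eed-/- upstream flank peaks and no Eed+/+ peak in the list. The ephrin ligand gene Efna1 (1.18) was the only one of the 26 whose peak covered the start of exon 1. Sox4 (1.34) and Dll1 (1.14) were different from these, since both genes had Eed+/+ peaks nearer to or inside the gene, 4077 and 2664 bp from the Eed-/- peak.

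Of the Eed+/+ peaks without an overlap the highest was at BC061194, with a level of 12.2 at 9254 bp and a second peak of 4.01 at 4121 bp. RefSeq pairs the accession of BC061194 with Spag6, a protein of the sperm tail. The Eed-/- list held no peak of this gene and none within 300 kb of either peak. These 2 peaks met islands over 62.0% and 30.7% of their width, in contrast to Ebf2 and Onecut1 above. Gtpbp3, a mitochondrial tRNA-modifying enzyme, was the only gene with upstream flank peaks in both lists and no overlap of any kind between them, with an Eed-/- peak of level 1.46 at 3392 bp and an Eed+/+ peak of level 2.78 at 6672 bp. The gap between the Gtpbp3 peaks was 684 bp, and the start of Ano8 lay in the Eed-/- peak.

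Upstream flank peaks often stood beside a promoter peak of the same gene. A peak within 1 kb of exon 1 was present in the same list for 29 of 97 Eed-/- peaks (29.9%, 21.0 to 40.0) and 44 of 164 Eed+/+ peaks (26.8%, 20.2 to 34.3), beside 7.64% and 10.4% of all peaks. Many of those peaks are the promoter peaks themselves, so the comparison is a description of the lists. Which genotype had the larger share depended on the setting, since any other peak of the same gene was present for 49.5% of Eed-/- and 65.9% of Eed+/+ peaks. The gap to the promoter peak had a median of 1889 bp in Eed-/- cells and 1236.5 bp in Eed+/+ cells, and was as short as 8 and 12 bp. The upstream peak had the lower level of the pair at 23 of 29 places in Eed-/- cells and 37 of 44 in Eed+/+ cells. The median ratio of upstream over promoter level was 0.87 in Eed-/- cells and 0.60 in Eed+/+ cells. Of the 44 Eed+/+ pairs, 14 had an Eed-/- overlap at the promoter peak alone, 4 at the upstream peak alone and 9 at both. Of the 29 Eed-/- pairs, 14 had both peaks inside the same Eed+/+ peak.

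Some upstream flank peaks lay at the start site of another gene or at an additional start of their own. An annotated start of the assigned gene lay inside 31 of 97 Eed-/- peaks (32.0%) and 67 of 164 Eed+/+ peaks (40.9%). These shares were below the 70.3% and 67.8% of all peaks, and the rule itself selects midpoints away from exon 1. Only starts of other genes lay inside 15 Eed-/- peaks (15.5%) and 20 Eed+/+ peaks (12.2%), beside 8.65% and 8.58% of all peaks. Both Akt1 peaks, of level 1.31 in Eed-/- cells and 5.96 in Eed+/+ cells, held the start of Zbtb42, and the Eed-/- peak was the widest of its set at 8570 bp. No annotated start lay inside 51 Eed-/- peaks (52.6%) and 77 Eed+/+ peaks (47.0%), beside 21.1% and 23.6% of all peaks. The peaks with no start inside were overlapped in 37 of 51 cases in Eed-/- cells (72.5%, 58.3 to 84.1) and in 16 of 77 in Eed+/+ cells (20.8%, 12.4 to 31.5). Ntng2, which codes for the synaptic netrin-G2, had levels of 1.29 in Eed-/- cells and 8.85 in Eed+/+ cells, at peaks that held starts of Ntng2 itself and of 6530402F18Rik.

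The summit windows were also searched for 2 motifs on both strands. CACGTG, the palindromic E-box, occurred in 13 of 97 Eed-/- windows (13.4%, 7.33 to 21.8) and 12 of 164 Eed+/+ windows (7.32%, 3.84 to 12.4), beside 10.1% and 8.32% over all peaks. Within the Eed-/- set it occurred in 7 of the 26 windows of peaks without an overlap (26.9%, 11.6 to 47.8) and 6 of the 71 with an overlap (8.45%, 3.16 to 17.5). The Gata2 window printed above holds it 3 times and the Susd4 and OTTMUSG00000015829 windows do not hold it. TCCCGC, an E2F-like motif, occurred in 41 Eed-/- windows (42.3%) and 56 Eed+/+ windows (34.1%), beside 39.5% and 37.2% over all peaks. Within the Eed+/+ set it occurred in 23 of 92 windows of peaks without an overlap and 33 of 72 with an overlap, windows which also differed in their CG counts as given above.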

How the data were processed

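RING1B chromatin immunoprecipitation was sequenced in Eed-/- and Eed+/+ mESCs. The authors mapped tags to mm9 with Bowtie, excluding non-unique mappings, and ran MACS on each genotype to call peaks at an FDR under 2% and more than 100 tags. Neither the tool versions nor the control library of the peak call are named in the sources used here. The deposited lists give for each peak its tag count, its fold enrichment (a ratio over background), its FDR in percent and a score, which scales the −log10 p-value of the peak caller, together with the gene, the distance from exon 1 and the location. The score was not used. The mapped tag totals used for scaling were those stated in the study's methods. The CBX7 samples were not analysed here.

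Overlap meant at least 1 shared bp. CpG islands (at least 200 bp, GC at least 50%, observed over expected CG at least 0.6) were found on mm9 by a running score, and start sites came from GENCODE M1. Peak gene starts lay within 100 bp of an annotated start of that gene for 87.8% of Eed-/- and 87.3% of Eed+/+ peaks. Calculations used Python 3.11.15, numpy 2.4.6, scipy 1.17.1, numba 0.67.0 and matplotlib 3.10.9, and the overlap code was tested on simulated data. RefSeq names were matched by accession for 95 of 97 Eed-/- and 163 of 164 Eed+/+ peaks.

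Named genes were the 6 highest upstream flank peaks by tags per kb in each genotype and overlap class, the 3 widest and the 3 farthest of each genotype, genes with upstream flank peaks in both lists that did not overlap, up to 3 per genotype of each gene list, and genes with 3 or more such peaks in a list. The members and lists were chosen with earlier results of these data known. The alternatives changed the overlap, FDR limit, window, chromosomes, depth, level measure, island length, companion peaks and start sites. A few items are not reported here.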

Additional observations from a re-analysis of the deposited data

How the results depend on the processing

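Of 39 recalculations with another setting 23 stayed close to the value reported and 16 moved, and of 9 chosen after seeing the data 6 stayed close and 3 moved. Close meant within the 95% interval of a share or median, or within 1.5 times for a number of peaks, such as the 115 of 164 Eed+/+ peaks that end before exon 1. Requiring 50% of both peaks gave overlap shares of 38.1% of Eed-/- and 25% of Eed+/+ peaks. An FDR of 1% or less left 19 Eed-/- peaks (median width 2613 bp), with overlap shares of 94.7% in Eed-/- and 14.0% in Eed+/+ cells and a promoter peak of the same gene for 5.26% of Eed-/- and 26.8% of Eed+/+ peaks; since it removes most Eed-/- peaks, the Eed+/+ share had to fall. Moving the window to 10000 to 2001 bp upstream gave, in Eed+/+ cells, an overlap share of 34.2% and a width of 2750.5 bp, and a promoter peak for 33.8% of Eed-/- and 35.1% of Eed+/+ peaks. The 7 Eed-/- peaks with enough tags at the Eed+/+ depth were overlapped in 85.7% of cases. Without scaling to depth the median level ratio was 0.753, and under the other alternatives it lay between 0.164 and 0.199. Islands of at least 500 bp were met by 69.1% of Eed-/- and 57.9% of Eed+/+ peaks. Counting any other peak of the gene gave 49.5% in Eed-/- and 65.9% in Eed+/+ cells. Under these 3 settings the promoter peak share was lower in Eed-/- cells, while as reported it was higher (29.9% against 26.8%). A start site lay within 1 kb of 63.9% of Eed-/- and 62.8% of Eed+/+ peaks, and a coding one of 55.7% and 57.3%, which turns the order. Among Eed+/+ peaks ending before exon 1, 28.7% were overlapped, the median width was 2648 bp and 73.0% met an island. No paired analysis was possible because each genotype had 1 peak list. With 1 list per genotype and unequal depth, genotype, library and depth cannot be told apart, and a peak missing from a list was not detectable at its threshold, which does not show that RING1B was absent.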
